A study of Homo sapiens with 4 samples.

Results

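Disulfide isomerases and the lectins of the calnexin cycle were followed through the open chromatin around their 8 genes, CALR, CANX, PDIA3, PDIA4, PDIA6, P4HB, ERO1L and ERO1LB. The cells were wild-type HCT116, an established human colorectal cancer line, and accessible DNA was read out by ATAC-seq, which cuts and tags open chromatin with a transposase. Cells had received tunicamycin at 0.5 µg/ml for 6 h, or 0.1% DMSO alone for 6 h, with 2 libraries (biological replicates, per the series) in each group. Each library is represented by 1 list of peaks on hg19. The comparison asks how open chromatin differs between cells under stress of the endoplasmic reticulum (ER) and solvent-treated cells. A peak was a member when its midpoint lay within 20 kb of the hg19 start site of a gene, and a promoter peak when it lay within 2 kb. Overlapping peaks of the 4 lists were joined into regions. This gave 35 of 78788 regions in all, of which 13 were promoter regions, and every gene had at least 1.

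Tunicamycin blocks the first step of N-glycosylation, and unfolded glycoproteins then accumulate in the ER. Calnexin (CANX), a membrane protein, and calreticulin (CALR), its soluble relative, are lectins that hold glycoproteins with trimmed glucose residues. PDIA3 (ERp57) is the disulfide isomerase that works beside both lectins. P4HB is the founding protein disulfide isomerase and also the beta subunit of prolyl 4-hydroxylase, and PDIA4 (ERp72) and PDIA6 (P5) are further members of that family. ERO1L and ERO1LB, now named ERO1A and ERO1B, reoxidize the isomerases. Many genes of this kind carry the ER stress response element (ERSE), a CCAAT box bound by NF-Y that is spaced from a CCACG box bound by ATF6.

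RefSeq promoter sequences on GRCh38.p14, each of 300 bases from 250 before to 50 after a start, were found for 7 of the 8 genes (12 windows), and PDIA3 had no entry. The ERSE, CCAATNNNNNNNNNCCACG on either strand, was present in 6 of the 12 windows and in 4 genes, CALR (1 of 1 window), CANX (3 of 4), PDIA6 (1 of 2) and ERO1LB (1 of 1). The 3 CANX windows overlap and share a single site, so that the 6 windows hold 4 sites. Of all 35116 windows in the table, 27 (0.0769%) held it, the 6 included. ERSE-II (ATTGGNCCACG), the UPR element core (TGACGTGG), the cAMP response element (TGACGTCA) and the amino acid response element (TGATGNAA) were in none of the 12 windows, and in 0.0541%, 0.729%, 1.85% and 3.62% of all windows. The CCAAT box alone, which is also part of every ERSE, was found in 10 of the 12 windows, against 34.6% of all windows, and in 6 of the 7 genes, all but ERO1L. Among these 10 are the 3 overlapping CANX windows, which again share a single site. The 4 promoters with an ERSE are given 5′ to 3′ on the strand of the gene, as the 250 bases before the start, with that of PDIA4, whose windows held none and whose peak had lower ranks in both tunicamycin libraries. Capitals mark the ERSE, or in PDIA4 the CCAAT boxes.
CALR, chr19:12938359-12938608, plus strand: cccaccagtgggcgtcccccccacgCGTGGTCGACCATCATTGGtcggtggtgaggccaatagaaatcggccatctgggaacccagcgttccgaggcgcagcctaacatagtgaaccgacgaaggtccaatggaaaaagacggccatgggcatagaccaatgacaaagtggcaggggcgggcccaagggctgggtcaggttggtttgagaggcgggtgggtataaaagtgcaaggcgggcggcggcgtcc
PDIA6, chr2:10812786-10813035, minus strand: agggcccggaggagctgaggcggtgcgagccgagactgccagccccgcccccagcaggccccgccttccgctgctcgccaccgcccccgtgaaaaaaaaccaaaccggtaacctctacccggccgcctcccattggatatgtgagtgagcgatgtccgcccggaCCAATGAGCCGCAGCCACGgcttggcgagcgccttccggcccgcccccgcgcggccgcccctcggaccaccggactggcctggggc
CANX, chr5:179698679-179698928, plus strand: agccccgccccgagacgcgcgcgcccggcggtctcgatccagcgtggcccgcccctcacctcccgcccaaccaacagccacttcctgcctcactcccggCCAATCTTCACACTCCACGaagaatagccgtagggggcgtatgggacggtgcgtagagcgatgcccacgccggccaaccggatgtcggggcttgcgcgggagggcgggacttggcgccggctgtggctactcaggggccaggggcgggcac
ERO1LB, chr1:236281959-236282208, minus strand: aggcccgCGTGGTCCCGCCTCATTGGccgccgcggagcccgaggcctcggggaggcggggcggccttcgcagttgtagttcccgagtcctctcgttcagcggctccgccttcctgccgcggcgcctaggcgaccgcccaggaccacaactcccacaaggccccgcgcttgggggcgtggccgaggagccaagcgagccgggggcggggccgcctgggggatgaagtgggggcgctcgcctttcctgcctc
PDIA4, chr7:149028491-149028740, minus strand: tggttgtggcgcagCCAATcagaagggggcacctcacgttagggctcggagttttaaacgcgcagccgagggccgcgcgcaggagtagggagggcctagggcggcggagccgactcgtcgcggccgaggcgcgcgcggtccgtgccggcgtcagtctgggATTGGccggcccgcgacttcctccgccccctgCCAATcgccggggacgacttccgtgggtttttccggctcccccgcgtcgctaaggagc

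These matches describe letters in a window and not binding. In CALR the ERSE ran from 225 to 207 bases before the RefSeq start, in PDIA6 from 86 to 68, in CANX from 151 to 133 in the printed window and in ERO1LB from 243 to 225. Counted from the other CANX starts, the same site lay 189 to 171 bases before one and across the other. It lay on the strand opposite to the gene in CALR and ERO1LB. Of these 4 genes, CALR and PDIA6 had promoter peaks of lower rank in both tunicamycin libraries, and the ranks of CANX and ERO1LB overlapped between groups. The windows were not placed on the hg19 peaks, because the builds differ, and the start used in each build may not be the same base.

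The lists held 56566 to 62526 peaks per library, of which 25 to 29 (0.0442% to 0.0477%) lay within 20 kb of the 8 genes. DMSO replicates 1 and 2 had 27 and 25 such peaks (26 ± 1.41, SD, n = 2), and tunicamycin replicates 1 and 2 had 27 and 29 (28 ± 1.41, SD, n = 2). The groups touched at 27, and a two-sided exact permutation test gave p = 0.667, where 0.333 is the smallest that 2 against 2 libraries allow. The number of reads piled at each summit was recovered from the deposited fold and p-value, and its median over the regions listed in all 4 libraries was 18 and 19 in DMSO replicates 1 and 2 and 19 and 21 in tunicamycin replicates 1 and 2.

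Most member regions were present with and without tunicamycin. Of the 35, 21 (60%) were listed in all 4 libraries, beside 51.3% of all regions, and 10 (28.6%) in a single library, beside 22.3% of all. Few differed in presence, since 2 regions were gained, listed in both tunicamycin libraries and neither DMSO library, and none was lost, the reverse. Over all regions 3.65% were gained and 1.86% lost, so that 2 and 0 of 35 (5.71% and 0%) are counts near the background. The windows differed widely in content. PDIA3 and PDIA4 each had a single region, at the promoter, and ERO1LB had 3 regions, of which only the promoter was in all 4 lists. CALR had 8 regions and P4HB 9, and CANX, PDIA6 and ERO1L had 4, 4 and 5. The plot of peaks around the start sites shows these windows.

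**Figure D1:**
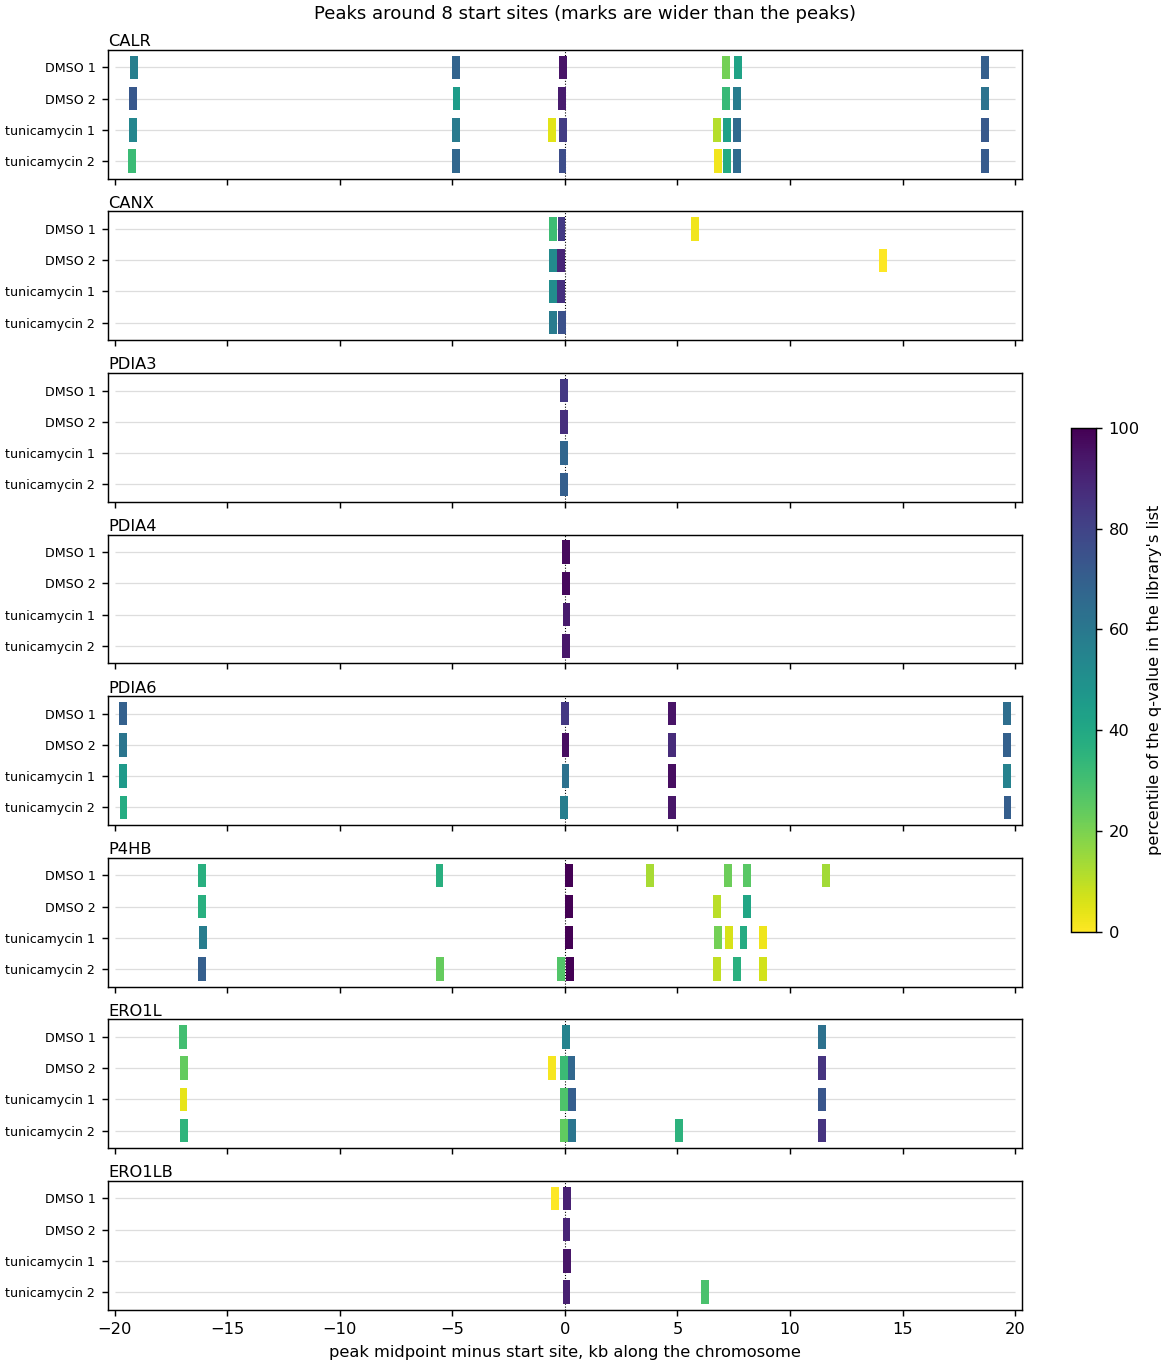
Peaks of each library within 20 kb of the 8 start sites, placed by the midpoint of the peak minus the start site in kb along the chromosome and coloured by the percentile of the q-value in the library's own list (0 weakest, 100 strongest). Each of the 8 genes has a peak at its start site in all 4 libraries, and the 2 gained regions lie near 7 kb from CALR and 9 kb from P4HB.

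All 8 start sites were open in control and in stressed cells. The strength of a promoter is given by the percentile of its best q-value among the 40447 regions listed in all 4 libraries, from 0 (weakest) to 100 (strongest), and by the reads at its summit. In DMSO the order of the mean percentile was P4HB (99.7), PDIA4 (96.7), CALR (91.2), ERO1LB (86.6), PDIA6 (86.1), CANX (80.7), PDIA3 (79.2) and ERO1L (48.2). The PDIA6 replicates, at 77.2 and 95.0, spanned those of CALR and ERO1LB and overlapped those of CANX and PDIA3, which also overlapped each other. P4HB, PDIA4 and ERO1L stood clear of their neighbours in both DMSO libraries. After tunicamycin 4 promoters, those of CALR, PDIA3, PDIA4 and PDIA6, had both percentiles below both DMSO percentiles, and none had both above. That is 50% of 8, beside 18.3% of all common regions below and 18% above, or 18.1% below and 18.1% above among the 9187 common regions with a mean percentile of at least 75. None of the 8 passed limma's test on normal scores of the ranks with Benjamini-Hochberg adjustment over the 40447 regions, which called 0.0519% of them at 0.05. The smallest adjusted p among the 8 was 0.141 in limma, and 4 of the 8 had an unadjusted p under 0.05, as did 2965 of the 40447. The median change in score was -0.43 over the 8 promoters and 0.000440 over all common regions.

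**Figure D2:**
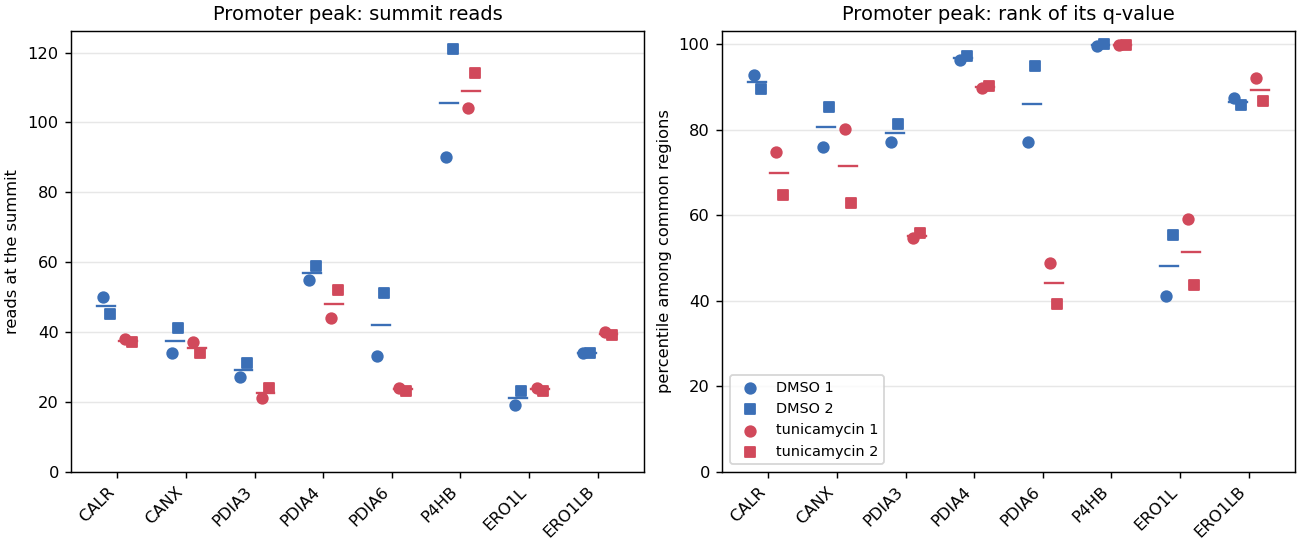
Reads at the summit (left) and percentile of the q-value among the 40447 common regions (right) for the promoter peak of each gene, with 1 point per library and a bar at the mean of the 2 libraries of a group. The tunicamycin points of CALR, PDIA3, PDIA4 and PDIA6 lie below both DMSO points in both panels, and those of P4HB lie between them in the left panel.

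Among the isomerases, PDIA6 had the promoter that differed most. Its region on chromosome 2 at 10952782 to 10953184 (start site 10952960) carried 33 and 51 reads at the summit in DMSO replicates 1 and 2, and 24 and 23 in tunicamycin replicates 1 and 2. Both tunicamycin summits were lower than both DMSO summits, and the DMSO replicates stood further apart (42 ± 12.7, SD, n = 2) than the tunicamycin replicates (23.5 ± 0.707, SD, n = 2). Its percentile was 77.2 and 95.0 in DMSO and 48.8 and 39.2 in tunicamycin, and the change in score was -1.35 ± 0.331 (SE, limma adjusted p = 0.141). The size rests in part on DMSO replicate 2. Without it the score change was -0.90 (limma adjusted p = 0.672), and without DMSO replicate 1 it was -1.79 (limma adjusted p = 0.0222). In both of these the lone DMSO library is assumed to vary like the tunicamycin libraries, and the one kept in the second is the higher, with 51 reads. A fit of log2 summit reads, chosen after the data had been examined, gave 0.530 times the DMSO level after scaling each library to its median (log2 change -0.92 ± 0.210, SE, limma adjusted p = 0.0190), and it called 0.148% of all common regions. The summed width of the peak was 384 and 399 bp in DMSO, and 368 and 232 bp in tunicamycin, so that the narrow value came from replicate 2. The local background at the summit was 1.32 and 1.48 reads in DMSO and 1.23 and 1.15 in tunicamycin.

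PDIA4 and PDIA3 had smaller differences in the same direction, and their replicates were close in percentile. The PDIA4 region on chromosome 7 at 148725525 to 148726151 (start site 148725782) had 55 and 59 reads in DMSO and 44 and 52 in tunicamycin. Its percentile was 96.2 and 97.1 against 89.7 and 90.1, which is a change in score of -0.56 ± 0.264 (SE, limma adjusted p = 0.654). PDIA4 thus stayed among the stronger promoters of the set, and its width, 596 and 549 bp against 594 and 613 bp, overlapped between groups. The PDIA3 region on chromosome 15 at 44038418 to 44038686 (start site 44038590) had 27 and 31 reads in DMSO and 21 and 24 in tunicamycin. Its percentile was 77.1 and 81.3 against 54.7 and 55.7 (score change -0.68 ± 0.326, SE, limma adjusted p = 0.656). In percentile the PDIA3 groups were apart by more than the spread within either, although the adjusted p did not pass. In reads they were not apart by more than that spread. The PDIA3 width was nearly constant at 250 and 258 bp against 269 and 264 bp.

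P4HB had the strongest promoter of the 8 with either treatment. Its region on chromosome 17 at 79818465 to 79819068 (start site 79818544) had 90 and 121 reads in DMSO and 104 and 114 in tunicamycin, over the highest local background of the 8 promoters, 3.41 to 3.88 reads. The tunicamycin summits lay between the DMSO summits, and the score change was -0.03 ± 0.239 (SE, limma adjusted p = 0.991). Its peak was wider in both tunicamycin libraries, 518 and 571 bp against 466 and 467 bp, a fold of 1.14 that did not pass (limma adjusted p = 0.848). A separate narrow peak of 101 bp, with 25 reads, was listed 186 bp from the start site in tunicamycin replicate 2 only.

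Of the lectins, CALR had lower ranks in both tunicamycin libraries and CANX did not, a contrast that was not tested. The CALR region on chromosome 19 at 13049088 to 13049523 (start site 13049414) had 50 and 45 reads in DMSO and 38 and 37 in tunicamycin. Its percentile was 92.9 and 89.5 against 74.7 and 64.8, the largest score change after that of PDIA6 among the promoters (-0.84 ± 0.295, SE, limma adjusted p = 0.450). Reads and ranks of CALR did not overlap between groups, while its width, 356 and 316 bp against 351 and 436 bp, did. The CANX region on chromosome 5 at 179125519 to 179126030 (start site 179125930) had 34 and 41 reads in DMSO and 37 and 34 in tunicamycin. Its percentile was 76.0 and 85.4 against 80.1 and 62.8, so that the groups overlapped (score change -0.29 ± 0.311, SE, limma adjusted p = 0.905). CANX had a further narrow site on chromosome 5 at 179125329 to 179125463, listed in all 4 libraries, with 17 and 23 reads in DMSO and 22 and 27 in tunicamycin. The summit of that site fell on the same base, 550 bp from the start site, in 3 libraries and at 542 bp in tunicamycin replicate 1.

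At the oxidases, promoter ranks overlapped between the groups. The ERO1LB region on chromosome 1 at 236445241 to 236445603 (start site 236445339) had 34 reads in both DMSO libraries and 40 and 39 in tunicamycin. Both tunicamycin summits were higher in unscaled reads. After scaling each library to its median, the reads overlapped between groups (1.075 times the DMSO level). The percentile, 87.5 and 85.7 against 92.0 and 86.7, overlapped as well (score change 0.15 ± 0.281, SE, limma adjusted p = 0.960). The ERO1L region on chromosome 14 at 53162154 to 53162812 (start site 53162419) had the weakest promoter of the 8 in DMSO. In tunicamycin its mean percentile was 51.3, above the 44 of PDIA6. The best ERO1L summit had 19 and 23 reads in DMSO and 24 and 23 in tunicamycin (score change 0.08 ± 0.374, SE, limma adjusted p = 0.985). The region was built of 2 peaks in 3 libraries, and DMSO replicate 1 listed a single peak of 647 bp across both. The stronger of the 2 had its summit 296 to 311 bp from the start site on the upstream side. The weaker, over the start site, had 14 reads in DMSO replicate 2 and 13 in each tunicamycin library. Its summit lay 53 bp upstream of the start site in DMSO replicate 2 and 3 bp upstream in tunicamycin replicate 1. In tunicamycin replicate 2 it lay 120 bp from the start site on the other side. The summed width was lower in both tunicamycin libraries, 460 and 483 bp against 647 and 538 bp (0.784-fold, limma adjusted p = 0.788), and in DMSO replicate 1 it includes the stretch between the peaks.

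**Figure D3:**
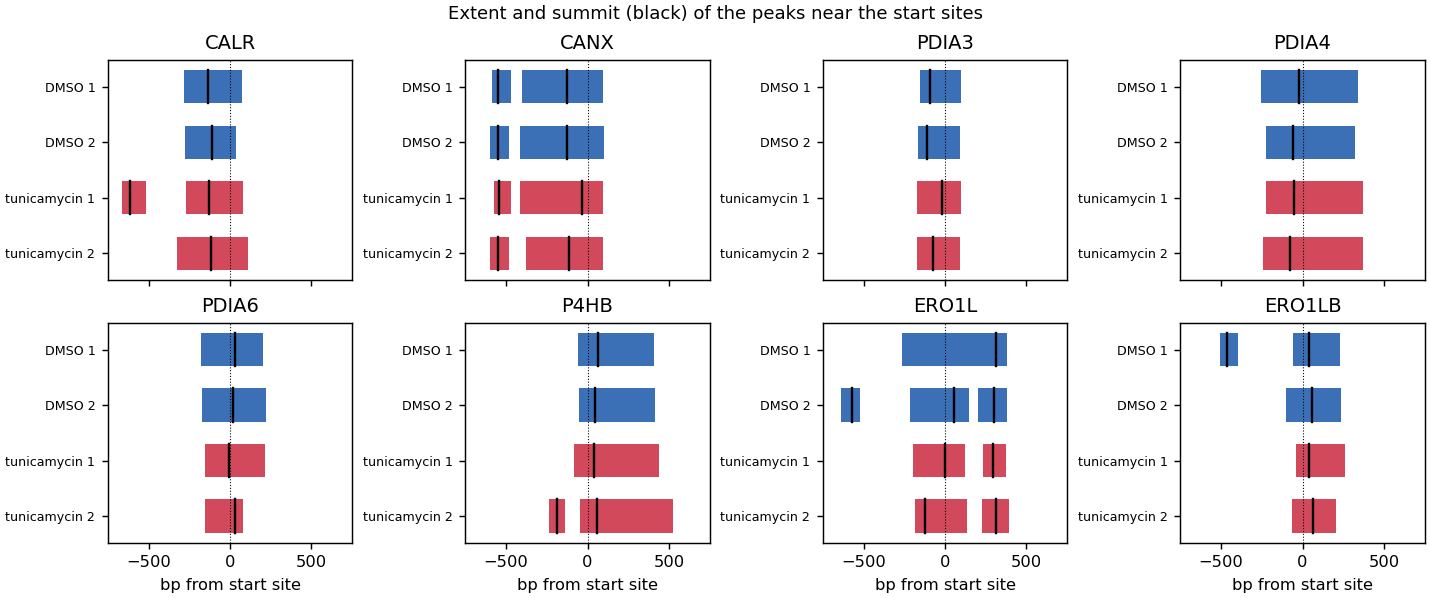
Extent of each listed peak within 2 kb of the start site (bars) and its summit (black line), in bp from the start site along the chromosome, for the 2 DMSO (blue) and 2 tunicamycin (red) libraries. The ERO1L promoter is 1 peak in DMSO replicate 1 and 2 peaks in the other libraries, and the PDIA6 peak of tunicamycin replicate 2 is the shortest of its 4 at 232 bp.

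Apart from ERO1L, all summits of the strongest promoter region of each gene lay within 135 bp of the start site. In CALR they fell 111 to 135 bp before the start site in all 4 libraries, in P4HB 38 to 62 bp before it and in ERO1LB 40 to 64 bp before it. In PDIA6 the summits lay from 30 bp before the start site to 6 bp after it. In PDIA3, the summits of DMSO replicates 1 and 2 were 92 and 110 bp from the start site, and those of tunicamycin replicates 1 and 2 were 17 and 76 bp from it, all on the side of lower coordinates. These PDIA3 groups did not overlap, and the shift was not tested. The PDIA4 summits, at 21 and 58 bp in DMSO and 51 and 79 bp in tunicamycin, overlapped between groups. In CANX the summit of tunicamycin replicate 1 was 33 bp from the start site and those of the other 3 libraries were 112 to 129 bp from it.

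The other 13 common regions within 20 kb showed differences in both directions. Both tunicamycin percentiles were below both DMSO percentiles in 2 of them (15.4%) and above in 3 (23.1%), which is near the 18.3% and 18% of all common regions, and none was called (smallest limma adjusted p = 0.698, with none at an unadjusted p under 0.05). The largest increases were at P4HB and CALR. The region on chromosome 17 at 79802325 to 79802561, 16102 bp from the P4HB start in the direction of transcription, had 14 reads in both DMSO libraries and 25 and 31 in tunicamycin. Its percentile was 21.44 and 20.99 in DMSO and 42.8 and 55.6 in tunicamycin, and its score differed by 0.78 ± 0.418 (SE, limma adjusted p = 0.717). On log2 summit reads it was 1.84 times the DMSO level (limma adjusted p = 0.184). The local background there was 0.725 and 0.721 reads in DMSO and 1.67 in both tunicamycin libraries, so that the surroundings were higher as well.

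Between 6 and 8 kb downstream of CALR, 2 common sites had more reads and wider peaks in both tunicamycin libraries, although neither passed a test. The region on chromosome 19 at 13056934 to 13057189 had 16 and 21 reads in DMSO and 29 and 32 in tunicamycin. The region beside it, at 13056374 to 13056839, had 12 and 15 against 22 and 23. Both had tunicamycin percentiles above the DMSO percentiles, with score changes of 0.41 ± 0.393 and 0.39 ± 0.484 (SE, limma adjusted p = 0.887 and 0.926). A further site, at 13056110 to 13056289, was gained, with 14 and 12 reads in the tunicamycin libraries and percentiles of 10.99 and 2.004 in their own lists. It lay less than 250 bp from the common region at 13056374 to 13056839. When peaks up to 250 bp apart were merged, it joined that region and no longer counted as gained. The local background at these sites was 0.892 to 1.05 reads in DMSO and 1.91 to 2.33 in tunicamycin. Its part in the differences was not tested. A site further downstream, 18663 bp from the CALR start, overlapped between groups in reads (21 and 18 in DMSO, 21 and 23 in tunicamycin) and in percentile (59.1 and 48.9 against 61.6 and 57.6). At the CALR promoter the local background was 1.94 and 1.73 in DMSO and 2.05 and 2.10 in tunicamycin.

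The largest decreases outside promoters were at the edges of 2 windows and at ERO1L. On chromosome 2 at 10933274 to 10933430, 19608 bp from the PDIA6 start in the direction of transcription, the percentile was 58.1 and 47.8 in DMSO and 29.2 and 18.6 in tunicamycin (-0.79 ± 0.408, SE, limma adjusted p = 0.698). This site had few reads, 15 and 13 against 12 and 11. On chromosome 19 at 13030041 to 13030357, 19216 bp from the CALR start on the upstream side, it was 43.4 and 62.7 against 38.6 and 13.2 (-0.78 ± 0.413, SE, limma adjusted p = 0.712), with 17 and 22 reads against 16 and 12. On chromosome 14 at 53145385 to 53145575, 16940 bp from the ERO1L start, the reads were 8 and 7 against 4 and 9, and the groups overlapped (-0.63 ± 0.557, SE, limma adjusted p = 0.870). The PDIA6 window also held a strong site 4763 bp upstream of the start site, on chromosome 2 at 10957632 to 10957815, with 44 and 37 reads in DMSO and 47 and 44 in tunicamycin. Unlike the PDIA6 promoter, this site overlapped between groups in percentile (score change 0.26 ± 0.277, SE, limma adjusted p = 0.904), and the difference between the 2 sites was not tested.

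**Figure D4:**
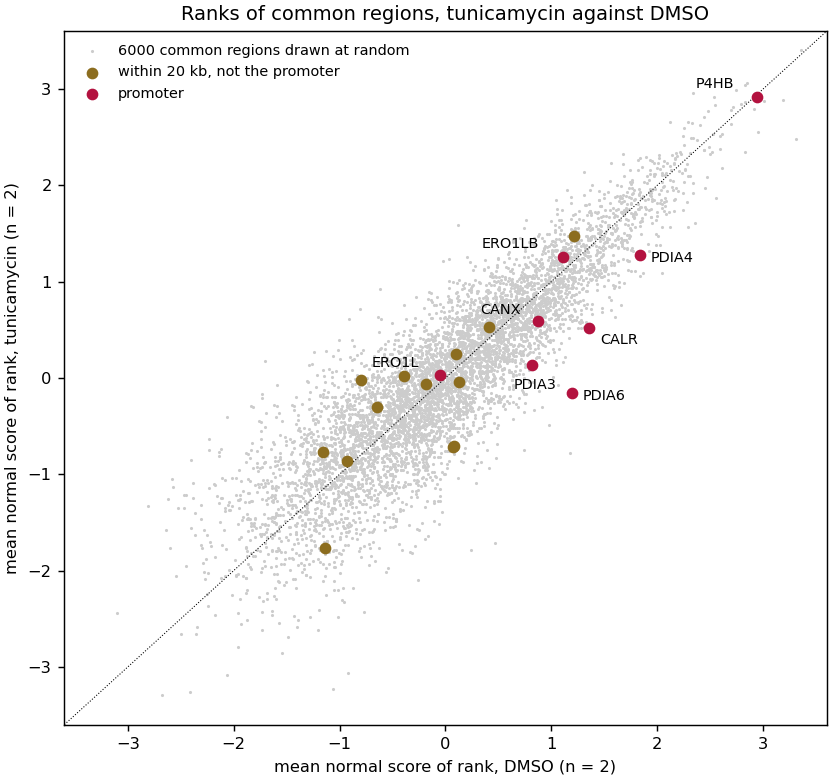
Mean normal score of the q-value rank in the 2 tunicamycin libraries against that in the 2 DMSO libraries, for the 8 promoters (red, named), the other 13 common regions within 20 kb (brown) and a random draw from the 40447 common regions (grey). Points on the dotted line did not differ in mean score, and PDIA6, with a change of -1.35, lies furthest below it among the 8 promoters.

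Peak width depends on the same signal as the q-value, and is given as a further description of the sites. Of the 21 common regions, 7 (33.3%) were wider and 2 (9.52%) narrower in both tunicamycin libraries than in both DMSO libraries, beside 20% and 13.6% of all common regions. Among the wider ones were 4 around CALR and 2 around P4HB, with PDIA3 as the other. The 2 sites downstream of CALR measured 145 and 148 bp in DMSO against 246 and 232 bp in tunicamycin (1.60-fold), and 300 and 287 bp against 447 and 456 bp (1.51-fold). Replicates of these sites lay within 14 bp of each other in each group. The widest stretch was on chromosome 17 at 79825655 to 79826758, upstream of P4HB, where the next protein-coding gene in RefSeq is ARHGDIA. It measured 371 and 249 bp in DMSO and 888 and 1090 bp in tunicamycin (3.18-fold), the first value of each group being the sum of 2 peaks, at a local background of 4.35 to 4.82 reads in DMSO and 6.30 to 7.03 in tunicamycin. The reads at its best summit were 25 and 31 against 35 and 37, and its percentile overlapped between groups. The other gained region lay close to it, on chromosome 17 at 79827272 to 79827424, with 21 and 25 reads and percentiles of 2.40 and 7.03 in the tunicamycin lists. Limma on log2 width, with each library centred on its median, called none of the 21 and 0% of all common regions. At an unadjusted p under 0.05 stood 4 of the 21 and 2480 of the 40447, and the smallest adjusted p in limma was 0.407, for the stretch upstream of P4HB.

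**Figure D5:**
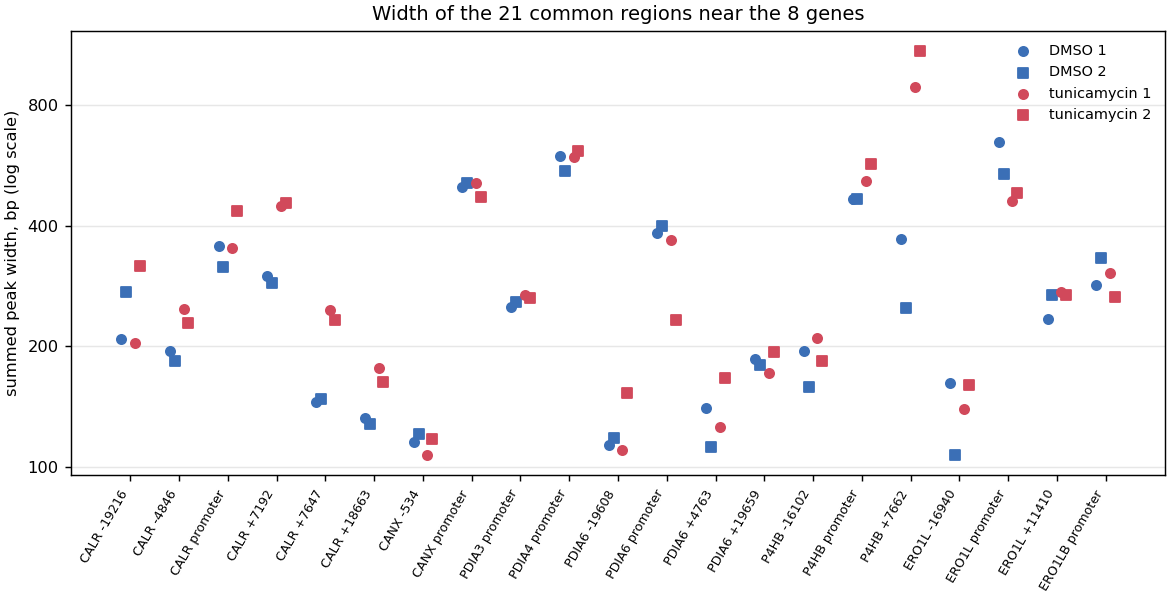
Summed width of the listed peaks (bp, log scale) of the 21 common regions, with 1 point per library, named by the gene and by the midpoint minus the start site in bp along the chromosome. The tunicamycin points lie above the DMSO points in 7 regions, most widely apart in the stretch 7662 bp from P4HB, and below them at the promoters of PDIA6 and ERO1L.

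The remaining 12 regions were listed in 1 to 3 libraries. Of the 10 listed in a single library, 6 were in DMSO and 4 in tunicamycin. Downstream of the CANX start they were a peak of 5 reads in DMSO replicate 1 and of 3 reads in DMSO replicate 2, at 5790 and 14129 bp. Upstream of P4HB, DMSO replicate 1 alone had peaks of 24 and 20 reads at 3798 and 11585 bp. Within the promoters, single-library peaks had 12 reads 590 bp from the CALR start (tunicamycin replicate 1), 7 reads 578 bp from ERO1L (DMSO replicate 2) and 6 reads 450 bp from ERO1LB (DMSO replicate 1). A site 5062 bp upstream of ERO1L with 14 reads, and 1 of 8 reads 6218 bp upstream of ERO1LB, were listed in tunicamycin replicate 2 only. In P4HB the site 5564 bp from the start site was listed in DMSO replicate 1 with 13 reads and in tunicamycin replicate 2 with 12, and the site at 6764 bp was missing from DMSO replicate 1 only. A site missing from a list may still hold reads, since only called peaks are listed.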

How the data were processed

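Peak lists of 4 ATAC-seq libraries were used. Peaks are on hg19, and the tools MACS2 2.2.7.1, Bowtie2 2.3.5.1 and Picard 2.18.23, with deepTools, SAMtools and Trim Galore, are listed without order or settings, per the submitters' processing notes. The authors deposited for each peak its position, a score, a ratio (fold over local background), the −log10 p-value and −log10 q-value, and the offset of the summit. Any shift of reads for the transposase is not given in the sources used here.

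Summit reads were recovered as the whole number that, with a pseudocount of 1, gave the deposited fold and matched the deposited −log10 p-value within 0.001, which held for 100% of the best peaks of common regions. What was piled up, and over what length, is not known. Peaks sharing at least 1 bp were merged (Python 3.11.15, pandas 2.3.3). Ranks of the best q-value per region over the 40447 regions in all 4 lists became normal scores, compared with limma 3.58.1 (R 4.3.3, mean trend, Benjamini-Hochberg over all of them at 0.05), and so was log2 width. The scripts were tested on simulated data. The members, lists and named regions were chosen with earlier results of these data known. All 8 promoters, every gained or lost region, and the 3 largest rank changes each way among the other common regions are named, together with other sites chosen after their values were seen. Libraries were grouped by their titles. Nothing in the labels says how the replicates were kept apart beyond the series' own term, so p-values measure the spread between these libraries. In limma, each SE and p-value draws that spread in part from all 40447 regions. Neither rests on the replicates of the named region alone. Other genes of the pathway were not analysed here, for want of hg19 start sites, and the cell line was not checked against marker genes for the same reason.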

Additional observations from a re-analysis of the deposited data

How the results depend on the processing

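With 2 libraries a group and summits of mostly 10 to 60 reads, only large differences can pass. No member region was called by rank in the fit as reported, with the deposited fold, without the mean trend, with peaks up to 250 bp apart merged, or with summit reads ranked (chosen after the data had been examined). In each of the following 3, 1 was called, the PDIA6 promoter: the replicate block (-1.35, limma adjusted p = 0.0473), without DMSO replicate 1 (a lone DMSO library, assumed to vary like the tunicamycin libraries), and log2 summit reads (-0.92, limma adjusted p = 0.0190, chosen after the data had been examined). Leaving out 1 library in turn gave 0 to 1 called by rank and 0 by width, with the PDIA6 change between -1.79 and -0.90. Same-numbered libraries did not deviate together (r = 0.0111 over common regions) and share only a number. The block moved the calls over all regions from 21 to 35, and changed no other call near the 8 genes. For width no alternative called a region. Of the alternatives for single promoters, 74 kept direction and side of the threshold, 3 (PDIA6) passed it and 3 turned sign. Without 1 library, ERO1L ranged from -0.115 (without tunicamycin replicate 1) to 0.275 and was -0.098 without DMSO replicate 1, beside a reported 0.08. P4HB ranged from -0.43 to 0.375 (without DMSO replicate 2), beside a reported -0.03. CANX ranged from -0.551 to -0.032 (reported -0.29) and ERO1LB from 0.003 to 0.296 (reported 0.15), each between leaving out tunicamycin replicate 1 and 2.

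The 2 gained regions became 0 with a −log10 q-value of at least 5 and 0 with lists of equal length. With peaks up to 250 bp apart merged, 1 remained, that near P4HB. They numbered 2 to 5 when 1 library was left out (5 without tunicamycin replicate 1, when 8972 of all 74832 regions were gained). Lost regions numbered 0, 1 under a reciprocal overlap of 50%, and 0 to 4 with 1 library left out (2 without DMSO replicate 1 and 4 without DMSO replicate 2, when 5191 of 75408 and 5130 of 75356 regions were lost). With a single library left, presence in that list alone counts. The difference in the number of peaks, 2 between group means, was 0 with lists of equal length and 1 to 3 with 1 library left out.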
